A study of Mus musculus with 12 samples.

Results

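The ion channel genes described here are 59 genes of potassium, calcium, sodium, chloride and other cation channels whose transcripts were measured in 3 zones of the embryonic mouse tibia. They were chosen by gene symbol: Kcn, Cacn, Scn followed by a digit, Trpc, Trpv or Trpm followed by a digit, Clcn, Ano and P2rx followed by a digit, and Piezo, with 1 Clcn symbol set aside beforehand. A gene was kept where the mean signal of a probe set reached 50 in at least 1 zone, and among such probe sets the 1 with the highest mean log2 signal over all arrays stood for it. This gave 59 of the 160 genes of the symbol pattern on the array, which names 18194 genes by 1 symbol. Tibiae of untreated CD1 mouse embryos at embryonic day 15.5 were cut by hand into zone I, zone II and zone III, and the RNA was measured on Affymetrix MOE 430 2.0 arrays, in 1 colour. The study's methods describe zone segments pooled over the animals of a litter, with 4 litters taken as separate experiments. Each zone therefore has 4 arrays, lettered A to D, and n = 4 counts pools and not single embryos. Whole segments were extracted, so fewer cells of a type and less RNA per cell cannot be told apart in any value below.

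Ion channels are membrane proteins that let ions cross down their gradients, and they open on voltage, ligands, calcium or mechanical force. Potassium channels set the membrane potential, calcium channels and many TRP channels carry calcium into the cell, and chloride channels and exchangers serve cell volume and the acidity of intracellular vesicles. Chondrocytes of the growth plate swell as they become hypertrophic and live in a charged, loaded matrix, and TRPV4 and the PIEZO channels are known as sensors of osmotic and mechanical stimuli in cartilage. Osteoclasts and macrophages, which arrive with blood vessels at the cartilage-bone junction, use channels of their own.

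The arrays had median signals between 32.4 and 43.3, and arrays of the same zone correlated at r of 0.948 or more against at most 0.900 between zones (log2 signals over the probe sets kept). The summed signals of the marker lists differed between zones, though that of resting and proliferating chondrocytes was highest in zone II and not in zone I. Resting and proliferating chondrocyte markers summed to 18478 to 23754 in zone I, 27689 to 30454 in zone II, then 9024 to 11362 in zone III. Markers of prehypertrophic and hypertrophic chondrocytes summed to 512 to 689 in zone I, 10165 to 11748 in zone II, then 6308 to 7675 in zone III. Zone III also carried markers of other cells. All 8 osteoclast markers were higher there than in both other zones, with sums of 680 to 770 in zone I, 666 to 1649 in zone II, then 11982 to 14245 in zone III. The Gapdh 3′ to 5′ ratio, a measure of RNA integrity, was 1.98 to 2.28 in zone III and 1.25 to 1.76 in the other zones. These ranges did not overlap, so RNA integrity and zone cannot be told apart in any comparison with zone III.

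Across the 3 comparisons the channel genes were called about as often as probe sets at large. A call is an adjusted p under 0.05 in limma, adjusted by Benjamini-Hochberg over the 22255 probe sets tested in that comparison. Between zones II and I, 8 of 59 members were higher in zone II, where 15.1% of all probe sets were, and 15 were lower, against 22.2% of all. Between zones III and II, 12 were higher in zone III against a background of 28.5%, and 14 were lower against 20.9%. Between zones III and I, 13 were higher in zone III against 21.0%, and 14 were lower against 19.0%. As shares of the members these are 13.6% and 25.4%, 20.3% and 23.7%, and 22.0% and 23.7%. The median log2 difference of the members was -0.08, -0.06 and -0.09 in the 3 comparisons, beside -0.07, 0.09 and 0.01 for all probe sets. None of these shares stood far from its background, and what follows is about single genes.

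**Figure D1:**
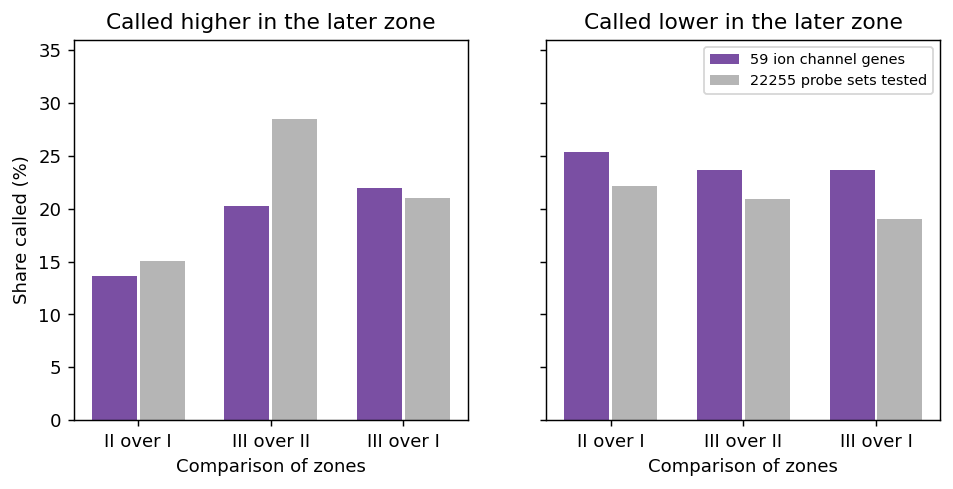
Share of the 59 ion channel genes (purple) and of all 22255 probe sets tested (grey) called higher (left panel) or lower (right panel) in the later zone of each comparison, in percent, at an adjusted p under 0.05. The widest gap between the bars is for genes higher in zone III than in zone II, at 20.3% of the members and 28.5% of all probe sets.

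In all, 35 members passed in at least 1 comparison and 24 in none, a count that was not made over all probe sets. Of the calls, 20 of 23 (zone II over I), 25 of 26 (III over II) and 27 of 27 (III over I) had no overlap between the arrays of the 2 zones. Fluidics runs held arrays of all 3 zones, and 23 of 23, 25 of 26 and 27 of 27 calls had the same sign within each of the 3 runs. A call makes both traits likely, and neither was counted over all called probe sets, so these counts describe the members only. The balance of calls depended on scaling. In zone II over zone I the split of higher and lower members was 8 and 15 as deposited, 11 and 11 after quantile normalization, 12 and 11 after centring on the array median and 5 and 22 after centring on ribosomal protein genes. In zone III over zone II it was 12 and 14 as deposited, 10 and 20 after quantile normalization, 10 and 18 after median centring and 24 and 7 after ribosomal centring, which itself moved the median of all probe sets to 0.60. Members that reached a signal of 50 in 1 zone only (10 in zone I, 0 in zone II, then 5 in zone III) could enter through that zone alone, so their being high there is partly a matter of the rule. Those of them with a call were Cacna1g, Cacna2d2, Piezo2, Kcnab1, Kcnd2, Kcna6 and Scn2b in zone I, and Kcnn4, P2rx5 and Trpv2 in zone III.

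Potassium channel genes were the largest group, with 25 members of 84 genes on the array. Of these, 3 were higher and 9 lower in zone II than in zone I (15.1% and 22.2% of all probe sets), 6 higher and 7 lower in zone III than in zone II (28.5% and 20.9% of all), and 5 higher and 7 lower in zone III than in zone I (21.0% and 19.0% of all). The median log2 differences were -0.28, -0.15 and -0.10. The calcium-activated channels held a gene that was highest in zone II and one that was higher in zone III than in both other zones.

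Kcnn4 encodes the intermediate-conductance calcium-activated potassium channel, known from macrophages, lymphocytes and red cells. Its signals were 7.07, 4.89, 5.50 and 3.40 in zone I, 4.83, 5.49, 4.62 and 3.47 in zone II, then 64.7, 72.3, 72.4 and 50.9 in zone III. All 4 arrays of zone III lay above all 8 others, whose signals were near the bottom of the scale. Kcnn4 reached the floor only there, so it is a member only through the zone where it was high. The log2 difference was 3.83 ± 0.22 for zone III over zone II and 3.68 ± 0.22 for zone III over zone I (adjusted p = 5.64e-08 and adjusted p = 7.4e-08, limma). With 16 added to every signal these became 1.97 and 1.93, since the table holds no detection calls and folds over signals this low depend on how background is treated. Kcnma1, the large-conductance calcium- and voltage-activated (BK) channel, had 149, 122, 108 and 107 in zone I, 280.0, 269, 339 and 329 in zone II, then 124, 136, 138 and 158 in zone III. The zone II arrays stood above all others, and zones I and III overlapped. Zone II exceeded zone I by 1.33 ± 0.14 on the log2 scale (adjusted p = 1.35e-05), and zone III was below zone II at -1.13 ± 0.14 (adjusted p = 2.39e-05). Another probe set of Kcnma1 passed both tests in the same directions with smaller differences, 0.45 and -0.40, and with the median of the gene's probe sets neither passed (adjusted p = 0.224 and 0.736).

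The marker sums of macrophages, osteoclasts, osteoblasts and endothelial cells were all highest in zone III, as Kcnn4 was, and other lists shared this. The mast cell sum was 484 to 625 there, with 1 marker higher and 1 lower than in zone I. Erythroid markers overlapped, with sums of 156 to 246 in zone I, 66.5 to 335 in zone II, then 228 to 395 in zone III. Between zones II and I Kcnn4 was not called (-0.15, adjusted p = 0.623, limma), but its signals in both zones were near the bottom of the scale. A fall could hardly have been seen there. Of the macrophage markers 3 were lower in zone II than in zone I and 0 higher, and Kcnn4 cannot be compared with them at this step. Macrophage markers summed to 1172 to 2024 in zone I, 595 to 964 in zone II, then 4255 to 5183 in zone III, with 6 of 7 markers over the floor and C1qa under it. The zone III sum was mostly Csf1r (means of 578, 286 and 2749 in zones I, II and III) and Cd68 (55.4, 36.99 and 991). Of the 7, 3 were higher and 1 was lower in zone III than in zone I, and Mrc1 (262, 51.3 and 127) and C1qb (184, 43.1 and 158) had their highest mean in zone I. The part of any of these cells in the Kcnn4 signal was not tested.

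The promoter of Kcnn4 is shown because this gene had the largest difference between zones III and I among the members that rose there, on the signals as deposited. That rank rests on very low signals in zone I. With 16 added, Ano1 (2.46) and Trpv2 had larger differences than Kcnn4. The promoter of Kcne3, described next, is shown because the gene rose in zone III after falling in zone II. The promoter of Trpv4 is shown for the opposite pattern. The sequences are the 250 bases before the start site in RefSeq's annotation of GRCm38.p6, read 5′ to 3′ on the gene's strand. Capitals mark matches on either strand to 4 motifs chosen after the values were seen: the SOX core ACAAAG, the RUNX core TGTGGT, the AP-1-like site TGANTCA and the GC box GGGCGG. N stands for any base, and no match overlapped another in these windows.
Kcnn4, chr7:24370013-24370262, plus strand: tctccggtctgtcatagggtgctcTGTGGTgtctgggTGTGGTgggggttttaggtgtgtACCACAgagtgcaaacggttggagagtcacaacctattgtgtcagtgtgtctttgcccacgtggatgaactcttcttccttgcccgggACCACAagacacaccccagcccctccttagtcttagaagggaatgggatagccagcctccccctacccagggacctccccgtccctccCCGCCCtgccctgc
Kcne3, chr7:100176420-100176669, plus strand, the first of 2 windows listed: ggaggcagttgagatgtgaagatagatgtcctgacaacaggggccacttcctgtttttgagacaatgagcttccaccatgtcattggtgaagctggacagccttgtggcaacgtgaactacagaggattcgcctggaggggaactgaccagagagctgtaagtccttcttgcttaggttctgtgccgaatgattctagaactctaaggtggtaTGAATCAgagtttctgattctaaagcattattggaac
Trpv4, chr5:114658422-114658671, minus strand: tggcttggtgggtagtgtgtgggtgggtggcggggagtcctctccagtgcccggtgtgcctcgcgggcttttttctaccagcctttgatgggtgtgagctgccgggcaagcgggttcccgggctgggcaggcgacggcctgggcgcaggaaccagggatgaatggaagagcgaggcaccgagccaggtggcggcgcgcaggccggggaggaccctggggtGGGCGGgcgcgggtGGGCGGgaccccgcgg
The Kcnn4 window holds 4 matches to the RUNX core and 1 to the GC box. Of 32851 such windows of all genes, 14.0% hold a RUNX core at least once and 10 hold 4 or more. The Kcne3 window holds 1 AP-1-like match, as 6.75% of all windows do at least once, and the Trpv4 window holds 2 GC boxes, with 32.7% of windows holding at least 1. Over the 70 windows of the 49 members that had any, 12.9% held a RUNX core, 12.9% a SOX core, against 16.5% of all windows, 5.71% an AP-1-like site and 44.3% a GC box. A match is a match of letters and says nothing of binding.

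Of the 6 auxiliary subunits, 4 were lower and 0 higher in zone II than in zone I, where 22.2% and 15.1% of all probe sets were, a count over few genes that is given as a description. Kcne3 and Kcne4 encode single-span subunits that change the gating of voltage-gated potassium channels such as KCNQ1. Kcne3 had 114, 74.7, 85.7 and 83.1 in zone I, 63.5, 21.97, 14.9 and 18.5 in zone II, then 589, 454, 526 and 494 in zone III. The 3 zones did not overlap, although array A of zone II was well above the other 3 of its zone. Zone III over zone II was 4.36 ± 0.35 (adjusted p = 8.41e-07), or 3.64 with 16 added to the signals, and zone II was below zone I at -1.82 ± 0.35 (adjusted p = 0.00155). Kcne4 was also lower in zone II than in zone I, and lower again in zone III. Its signals were 579, 396, 549.9 and 439 in zone I, 145, 201, 170.4 and 157 in zone II, then 128, 129, 94.7 and 104 in zone III, without overlap between zones. Zone II was 2.90-fold lower than zone I (adjusted p = 1.69e-05) and zone III 4.29-fold lower than zone I (adjusted p = 7.51e-07). The smaller step, zone III under zone II, was -0.56 ± 0.16 (adjusted p = 0.0117), and after ribosomal centring it no longer passed (-0.06, adjusted p = 0.777).

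The other auxiliary members were Kcnmb4, Kcnab1, Kcnip3 and Kcnmb2, named after their values were seen. Kcnmb4, a beta subunit of the BK channel, averaged 85.02 ± 5.15 in zone I, 55.5 ± 12.99 in zone II, then 153 ± 19.5 in zone III (SD, n = 4), so it was lowest in zone II, where the BK pore gene Kcnma1 was highest, and its call of zone II under zone I (adjusted p = 0.00758) was lost after median centring (adjusted p = 0.0511). Kcnab1, a cytoplasmic beta subunit of Kv1 channels, averaged 66.8 ± 11.2 in zone I, 33.3 ± 5.71 in zone II, then 24.6 ± 4.67 in zone III and was lower in both later zones than in zone I (adjusted p = 0.00115 for zone II and adjusted p = 5.53e-05 for zone III). A median with its second probe set, under the floor, kept both directions and lost both calls (adjusted p = 0.107 for zone II and 0.0662 for zone III). Kcnip3, a calcium-binding partner of Kv4 channels, was lower in zone III than in zone I by 1.51-fold (adjusted p = 0.00145), though not after ribosomal centring (-0.44, adjusted p = 0.0622). Its call against zone II (adjusted p = 0.0464) was lost when any 1 of 8 arrays was left out (adjusted p 0.0577 to 0.132) and changed sign after ribosomal centring (0.21). Kcnmb2 passed in no comparison.

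Voltage-gated pore subunits had 8 members, of which 1 was higher and 2 were lower in zone II than in zone I (15.1% and 22.2% of all probe sets), and 0 higher and 3 lower in zone III than in zone I (21.0% and 19.0% of all). Kcnd2 encodes Kv4.2, which carries fast, inactivating A-type currents in neurons and heart. It had 148, 139, 186 and 181 in zone I, 21.2, 26.2, 17.4 and 27.3 in zone II, then 13.7, 11.7, 20.3 and 32.7 in zone III. Zone I stood apart and zones II and III overlapped. Zone II was 7.15-fold lower than zone I (adjusted p = 9.06e-06) and zone III 8.96-fold lower (adjusted p = 2.24e-06). On the log2 scale these were -2.84 ± 0.28 and -3.16 ± 0.28, or -2.20 and -2.36 with 16 added. Kcnq5 encodes Kv7.5, a channel of slow M-type currents. Its signals were 79.3, 127, 111 and 89.6 in zone I, 143, 128, 183 and 169 in zone II, then 21.3, 15.03, 22.5 and 23.6 in zone III. Zone III was far below both other zones, at -2.92 ± 0.19 against zone II (adjusted p = 1.43e-07) and -2.30 ± 0.19 against zone I (adjusted p = 1.25e-06), or -2.22 and -1.67 with 16 added. Both other probe sets of Kcnq5 over the floor were also lower in zone III than in zone II, at -1.91 and -1.78. The call of zone II over zone I (0.62 ± 0.19, adjusted p = 0.0208) was lost without array A or D of zone I or C or D of zone II (adjusted p 0.0508 to 0.0624), after ribosomal centring (adjusted p = 0.302) and with the median of its probe sets (adjusted p = 0.185).

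Kcna6 encodes Kv1.6, a delayed rectifier. It had 71.2, 111, 62.7 and 54.3 in zone I, 46.3, 35.6, 29.9 and 46.2 in zone II, then 2.84, 2.45, 2.41 and 5.37 in zone III. Zone III was near the bottom of the scale on all 4 arrays. The difference of zone III against zone I was -4.55 ± 0.28 (adjusted p = 1.05e-07), or -2.20 with 16 added to the signals, and against zone II -3.66 ± 0.28 (adjusted p = 5.7e-07), or -1.52. The other 2 probe sets of Kcna6, both under the floor, showed -0.33 and -0.56 between zones III and I, so the size of this difference rests on 1 probe set. With the median of the 3 it was -1.10 (adjusted p = 0.000951), and -0.80 against zone II (adjusted p = 0.00614). Its call of zone II under zone I (adjusted p = 0.0257) was lost without array B of zone I or B or C of zone II (adjusted p 0.0587 to 0.0722), and after quantile normalization (adjusted p = 0.11), median centring (adjusted p = 0.058) or the median of its probe sets (adjusted p = 0.279). Kcnh2, the rapid delayed rectifier of the heart, averaged 66.5 ± 14.2 in zone I, 47.4 ± 13.03 in zone II, then 78.98 ± 10.02 in zone III and was higher in zone III than in zone II (adjusted p = 0.00651), a call lost after quantile normalization (adjusted p = 0.109) and median centring (adjusted p = 0.0527). Kcnh3, a brain channel of the same family with a zone mean over 300, averaged 387 ± 216 in zone I, 289 ± 104 in zone II, then 243 ± 76.9 in zone III, with array values in zone I between 145 and 642 and no call. Nerve and glia markers summed to 1751 to 2474 in zone I, 2902 to 3116 in zone II, then 348 to 599 in zone III. This sum was nearly all S100b (means of 1721, 2768 and 261 in zones I, II and III). Of 7 such genes on the array 3 passed the floor, and the only neuronal marker among them, Nefl, was highest in zone I (128, 20.5 and 43.3), while Tubb3, Snap25, Stmn2 and Elavl4 were under it in every zone.

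**Figure D2:**
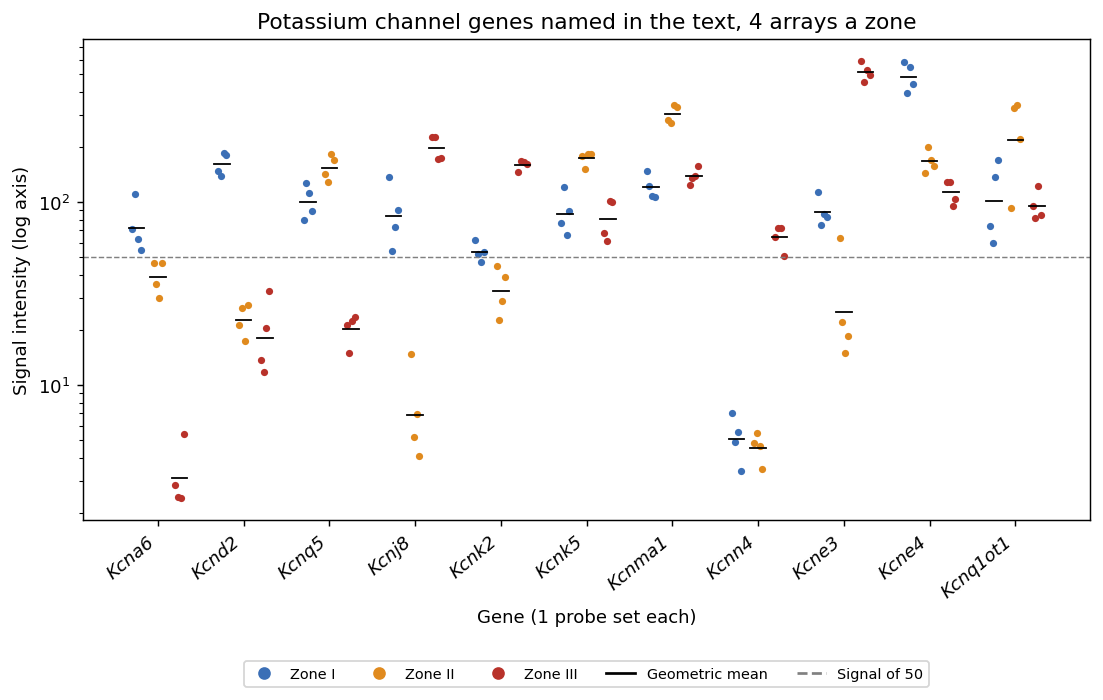
Signal intensity (log axis) of the 11 potassium channel genes named with all their arrays; each point is 1 array, with zones I, II and III from left to right for each gene, black bars geometric means of 4 arrays and the dashed line the floor of 50. Kcnn4, Kcne3, Kcnj8 and Kcnk2 have their highest arrays in zone III, Kcnk5 and Kcnma1 in zone II, and Kcna6, Kcnd2 and Kcne4 in zone I.

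Of the 4 inward rectifiers, Kcnj8 alone was called. It encodes Kir6.1, the pore of ATP-sensitive potassium channels and a gene known from pericytes and vascular smooth muscle. Its signals were 137, 53.7, 72.98 and 90.6 in zone I, 14.8, 5.17, 6.94 and 4.08 in zone II, then 227, 227, 172 and 175 in zone III. No array of one zone reached into another, with zone II near the bottom of the scale. Zone III over zone II was 4.86 ± 0.36 (adjusted p = 4.64e-07), the largest difference among all members in that comparison, and 3.19 with 16 added. Zone II against zone I was -3.61 ± 0.36 (adjusted p = 1.18e-05), or -2.10 with 16 added, and zone III against zone I was 1.25 ± 0.36 (adjusted p = 0.0162). Endothelial markers had the same order of zones, with sums of 666 to 1237 in zone I, 247 to 521 in zone II, then 2618 to 2940 in zone III, with all 8 genes over the floor. Smooth muscle and pericyte markers summed to 1662 to 2736 in zone I, 1175 to 1755 in zone II, then 2877 to 3194 in zone III, with Myh11 under the floor. Within that list Pdgfrb (means of 230.1, 72.3 and 1501 in zones I, II and III) and Abcc9 (129, 58.3 and 510.1) were highest in zone III, while Acta2 (561, 334 and 423) and Rgs5 (291, 60.7 and 102) were highest in zone I, and in all 2 were higher and 3 lower in zone III than in zone I. The part of vessel cells in the Kcnj8 signal was not tested.

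The 4 two-pore channels, which carry background potassium currents, went in different directions. Kcnk2 encodes TREK-1, which opens on membrane stretch. It had 62.4, 52.1, 47.2 and 52.97 in zone I, 44.6, 22.7, 28.7 and 38.8 in zone II, then 146, 168, 164 and 162 in zone III. Zone III was above all other arrays, at 2.29 ± 0.19 against zone II (adjusted p = 8.78e-07) and 1.58 ± 0.19 against zone I (adjusted p = 2.77e-05), while its lower level in zone II than in zone I (-0.71 ± 0.19) did not pass after quantile normalization (-0.39, adjusted p = 0.0859). Kcnk5 encodes TASK-2, a channel sensitive to external pH. Its signals were 76.95, 121, 66.04 and 89.4 in zone I, 179, 151, 182 and 183 in zone II, then 67.6, 61.3, 102 and 99.5 in zone III. Zone II lay above all 8 other arrays and zones I and III overlapped. Zone II over zone I was 1.01 ± 0.21 (adjusted p = 0.00232) and zone III against zone II -1.11 ± 0.21 (adjusted p = 0.000766), and a median with the gene's second, very low probe set gave 0.44 for the first (adjusted p = 0.442). Kcnk1 (TWIK-1) averaged 459 ± 83.3 in zone I, 191 ± 24.3 in zone II, then 248 ± 61.7 in zone III and was lower in both later zones than in zone I (adjusted p = 0.000202 for zone II and adjusted p = 0.00183 for zone III). Kcnk6 (TWIK-2) averaged 585 ± 138, 585 ± 59.8 and 526 ± 46.2 in zones I, II and III and passed in none.

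The symbol rule also caught Kcnq1ot1, an antisense noncoding RNA from the imprinted Kcnq1 locus that encodes no channel. It had 73.8, 59.7, 138 and 169.5 in zone I, 92.7, 328, 339 and 221 in zone II, then 94.98, 81.6, 122 and 84.8 in zone III. The zones overlapped, with array A of zone II as low as zone III. Its call of zone III under zone II (-1.21 ± 0.41, adjusted p = 0.0281) was lost when any 1 of 6 arrays was left out (adjusted p 0.053 to 0.0817), after ribosomal centring (adjusted p = 0.16) and with the median of its probe sets (adjusted p = 0.153), and in the run that held array A of zone II the difference was 0.04. Kcnq1 itself averaged 28.5 ± 14.4 in zone I, 36.6 ± 15.5 in zone II, then 52.3 ± 31.1 in zone III without a call. Of the 25 potassium members, 9 passed in no comparison (Kcnmb2, Kcnj11, Kcnj3, Kcnj6, Kcnk6, Kcna7, Kcnd1, Kcnh3 and Kcnq1). Their log2 differences lay between -1.59 and 0.83, the lowest being that of Kcna7 between zones III and II (adjusted p = 0.121), whose arrays overlapped. With the median of its probe sets Kcnj3 was called in each comparison, though its other probe sets were all under the floor.

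Calcium channel genes numbered 11 of 24 on the array. In zone II, 1 was higher and 2 were lower than in zone I (15.1% and 22.2% of all probe sets). In zone III, 0 were higher and 2 lower than in zone II (28.5% and 20.9% of all), and 1 was higher and 3 were lower than in zone I (21.0% and 19.0% of all). Cacna1g encodes Cav3.1, a low-voltage-activated T-type channel. Its signals were 116, 92.9, 107 and 84.1 in zone I, 15.2, 8.09, 4.60 and 5.67 in zone II, then 47.8, 2.61, 42.2 and 1.99 in zone III. Zone I stood above all 8 other arrays, and zone III was split, with arrays A and C well above B and D. Zone II against zone I was -3.72 ± 0.92 (adjusted p = 0.00695) and zone III against zone I -3.29 ± 0.92 (adjusted p = 0.0124). With 16 added these were -2.26 and -1.79. Fibrous tissue and perichondrium markers, all 6 over the floor, were also highest in zone I, with sums of 8026 to 10598 in zone I, 2055 to 3965 in zone II, then 4474 to 5368 in zone III. Their part in the genes that were highest in zone I was not tested.

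Cacna2d1 and Cacna2d2 encode alpha2delta subunits, which bring calcium channels to the cell surface. Cacna2d1 had 142, 167, 139 and 149 in zone I, 249, 201, 228 and 260.0 in zone II, then 98.6, 71.9, 85.5 and 83.4 in zone III. The zones did not overlap in this probe set. Zone III was below zone II at -1.47 ± 0.13 (adjusted p = 1.44e-06) and below zone I at -0.82 ± 0.13 (adjusted p = 0.000239). Its rise in zone II over zone I (0.65 ± 0.13, adjusted p = 0.00172) belonged to this probe set, since the other 2 over the floor showed -0.43 and -0.53 there without a call (adjusted p = 0.0782 and 0.346) and the median of all its probe sets was -0.47. With that median the other calls were lost too (-0.39, adjusted p = 0.435, for zone III against zone II and -0.86, adjusted p = 0.096, against zone I). That median includes 2 probe sets under the floor, and of the other 2 over it 1 was also lower in zone III than in both other zones (-1.06 and -1.48), while the other passed neither. Cacna2d2 had 73.9, 37.3, 56.2 and 43.2 in zone I, 5.91, 13.6, 16.5 and 27.2 in zone II, then 37.1, 19.2, 29.2 and 14.1 in zone III. Zone II lay below zone I on every array (-1.88 ± 0.43, adjusted p = 0.00411), or -1.12 with 16 added, and its other 2 probe sets, both under the floor, turned the median to 0.19.

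Cacna1c, the L-type channel Cav1.2 of heart and smooth muscle, averaged 82.7 ± 2.58 in zone I, 81.2 ± 11.5 in zone II, then 49.4 ± 2.40 in zone III. It was lower in zone III than in zone II (adjusted p = 0.000193) and than in zone I (adjusted p = 0.000181) without overlap of arrays, but not called against zone II after ribosomal centring (-0.20, adjusted p = 0.283). A median with its second probe set, which was under the floor, lost both calls (adjusted p = 0.424 against zone II and 0.281 against zone I). Cacna1f, the L-type channel known from the retina, was the member higher in zone III than in zone I (0.47 ± 0.16, adjusted p = 0.0344), a call lost when any 1 of 7 arrays was left out (adjusted p 0.051 to 0.101), after quantile normalization (adjusted p = 0.141) and after median centring (adjusted p = 0.0775). Cacng7, a transmembrane AMPA receptor regulatory subunit of the gamma family with a zone mean over 300, averaged 303 ± 155 in zone I, 219 ± 13.5 in zone II, then 208 ± 59.8 in zone III without a call. In all 6 calcium members passed in no comparison (Cacna1d, Cacnb1, Cacnb2, Cacng2, Cacng4 and Cacng7), with log2 differences between -0.44 and 0.54. For Cacna1d this holds for the probe set that stood for it. Another over the floor was lower than zone I in zone II (-1.03, adjusted p = 0.00226, limma) and in zone III (-0.84, adjusted p = 0.00689). With the median of its probe sets zone II was below zone I (-0.52, adjusted p = 0.0415), and zone III did not pass (-0.48, adjusted p = 0.0519).

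Sodium channels had 1 member of 11 genes, Scn2b, an auxiliary beta subunit of voltage-gated sodium channels. Its signals were 126, 131, 119 and 90.3 in zone I, 46.02, 44.9, 45.7 and 45.2 in zone II, then 42.2, 42.1, 42.3 and 45.2 in zone III. Every array of zone I lay above all others. It was 2.54-fold lower in zone II (adjusted p = 4.35e-06) and 2.69-fold lower in zone III (adjusted p = 1.58e-06) than in zone I. The other 2 probe sets of Scn2b, both under the floor, showed -0.85 and 0.18 between zones II and I, and with the median of its 3 probe sets the first call was lost (-0.23, adjusted p = 0.113) and zone III against zone I was -0.32 (adjusted p = 0.0298). All pore subunits of sodium channels on the array were under the floor. Skeletal muscle markers, a list of tissue rich in such channels, summed to 347 to 1645 in zone I, 201 to 623 in zone II, then 248 to 478 in zone III.

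Chloride channels and exchangers had 7 members of 13 genes. In zone II, 1 was higher and 1 lower than in zone I (15.1% and 22.2% of all probe sets). In zone III, 2 were higher and 2 lower than in zone II (28.5% and 20.9% of all), and 3 were higher and 1 lower than in zone I (21.0% and 19.0% of all). Clcn3 encodes a chloride-proton exchanger of endosomes and synaptic vesicles. It had 112, 142, 162 and 140.3 in zone I, 336, 378, 506 and 432 in zone II, then 131, 148, 180.3 and 189 in zone III. Zone II stood above every other array, 2.96-fold over zone I (adjusted p = 1.99e-05), and zone III was 2.54-fold below zone II (adjusted p = 3.14e-05). The other 3 probe sets of Clcn3 over the floor passed both tests with the same signs, at 1.62 to 1.84 and -1.66 to -1.41. Clcn5 and Clcn4 are endosomal exchangers of the same family. Clcn5 averaged 1086 ± 159 in zone I, 961 ± 162 in zone II, then 692 ± 107 in zone III and was lower in zone III than in zone I (adjusted p = 0.00609), though not after ribosomal centring (-0.50, adjusted p = 0.0576). Its call against zone II (adjusted p = 0.0273) was lost without array C of zone II or A or D of zone III (adjusted p 0.0618 to 0.0877) and after ribosomal centring, where it was 0.04, quantile normalization (adjusted p = 0.0597) and a block by fluidics run (adjusted p = 0.0569). All other probe sets of Clcn5 over the floor were also lower in zone III than in zone I (-1.43 to -0.52, adjusted p 7.38e-05 to 0.0136, limma). With the median of its probe sets zone III was below zone I (-0.97, adjusted p = 0.000124) and zone II (-0.44, adjusted p = 0.0185). Zone II was then also below zone I (-0.53, adjusted p = 0.00984), which was not called in the probe set that stood for it (-0.18, adjusted p = 0.413). Clcn4 averaged 352 ± 31.00, 320.1 ± 45.7 and 366 ± 47.1 in zones I, II and III, and neither it nor Clcn6 passed, with log2 differences between -0.24 and 0.20. For Clcn6 this holds for the probe set that stood for it. Another over the floor was higher in zone II than in zone I (0.34, adjusted p = 0.0359, limma). The median of its probe sets was 0.05 there (adjusted p = 0.802).

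Of the anoctamins, Ano1 and Ano6 had large differences and were highest in zone III. Ano1 encodes TMEM16A, the calcium-activated chloride channel of secretory epithelia and smooth muscle. Its signals were 98.9, 69.05, 68.6 and 109 in zone I, 166, 48.2, 102 and 139.5 in zone II, then 597, 430.1, 602 and 537 in zone III. Zone III lay above all other arrays, while zones I and II overlapped. Zone III over zone II was 2.38 ± 0.32 (adjusted p = 6.09e-05) and over zone I 2.67 ± 0.32 (adjusted p = 3.43e-05), and the second probe set of Ano1 passed both in the same direction at 1.40 and 1.45. Ano6, a calcium-activated scramblase that exposes phosphatidylserine and is needed for bone mineralization in mice, averaged 421 ± 134 in zone I, 239 ± 105 in zone II, then 1047 ± 111 in zone III. It was 4.78-fold higher in zone III than in zone II (adjusted p = 9.96e-05) and 2.58-fold higher than in zone I (adjusted p = 0.00505). Its lower level in zone II than in zone I (adjusted p = 0.0481) had overlapping arrays and was lost when any 1 of 9 arrays was left out (adjusted p 0.0575 to 0.129) and under quantile normalization, median centring, a fluidics run block and the median of its probe sets (adjusted p 0.0788 to 0.102), while its second probe set showed -0.11 there and passed both comparisons with zone III at 0.89 and 0.78. Osteoblast markers summed to 1142 to 1712 in zone I, 3698 to 5882 in zone II, then 11145 to 12309 in zone III, and their part in the Ano1 and Ano6 signals was not tested. Ano10 was higher in zone III than in zone I by 0.41 ± 0.14 (adjusted p = 0.0299), a call lost when any 1 of 4 arrays was left out (adjusted p 0.065 to 0.0851).

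The other cation channels, 15 members of 28 genes, held the sensors of force, osmolarity and ATP. In zone II, 3 were higher and 2 lower than in zone I (15.1% and 22.2% of all probe sets). In zone III, 4 were higher and 3 lower than in zone II (28.5% and 20.9% of all), and 4 were higher and 2 lower than in zone I (21.0% and 19.0% of all). Piezo1 and Trpv2 were the only members of all 59 that were higher in zone II than in zone I and again higher in zone III than in zone II. Piezo1 encodes a channel opened by membrane tension. It had 455, 472, 403 and 299 in zone I, 663, 634, 724 and 687 in zone II, then 1221, 1066, 1175 and 1084 in zone III. The zones did not overlap. Zone II was 1.69-fold above zone I (adjusted p = 0.0012) and zone III 1.68-fold above zone II (adjusted p = 0.000763). Piezo2, the touch receptor of sensory neurons, averaged 62.7 ± 9.29 in zone I, 41.9 ± 10.7 in zone II, then 49.9 ± 4.41 in zone III. Its call of zone II under zone I (adjusted p = 0.0203) had overlapping arrays and was lost without array A of zone I or B of zone II (adjusted p 0.0507 to 0.0581), after quantile normalization (adjusted p = 0.0749) or median centring (adjusted p = 0.0698) and with the median of its probe sets (adjusted p = 0.229).

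Trpv4 and Trpv2 ran in opposite directions between zones II and III. Trpv4, an osmotically and mechanically gated calcium channel mutated in human skeletal dysplasias, had 205, 399.9, 245 and 189 in zone I, 353, 337, 429 and 426 in zone II, then 56.9, 47.1, 41.9 and 50.4 in zone III. Zone III was low on every array, and zones I and II overlapped because array B of zone I was high. Zone III was 7.87-fold lower than zone II (adjusted p = 2.79e-07) and 5.09-fold lower than zone I (adjusted p = 2.59e-06). The smaller excess of zone II over zone I (0.63 ± 0.21, adjusted p = 0.0325) was lost without array A, C or D of zone I or C or D of zone II (adjusted p 0.0632 to 0.0921) and after ribosomal centring (0.27, adjusted p = 0.358). Trpv2, a calcium-permeable channel known from macrophages, had 19.8, 14.6, 13.8 and 14.4 in zone I, 40.7, 21.3, 30.7 and 28.4 in zone II, then 131, 129.9, 132 and 117 in zone III. The zones did not overlap, and zone III was 4.31-fold above zone II (adjusted p = 1.32e-06) and 8.20-fold above zone I (adjusted p = 7.81e-08). Zone III over zone I was 3.04 ± 0.18 on the log2 scale, or 2.18 with 16 added. Macrophage and osteoclast marker sums, given above, were also highest in zone III, and their part in the Trpv2 signal was not tested.

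P2rx5 encodes an ATP-gated channel. It had 5.19, 12.5, 6.97 and 14.1 in zone I, 15.04, 5.31, 5.56 and 4.90 in zone II, then 65.7, 56.4, 44.5 and 59.7 in zone III. All arrays of zone III were above the others, which were at very low signal. Zone III over zone II was 3.04 ± 0.38 (adjusted p = 2.96e-05) and over zone I 2.65 ± 0.38 (adjusted p = 0.00013), the first being 1.63 with 16 added. P2rx4, the receptor of the same family best known from lysosomes and microglia, averaged 193 ± 38.2 in zone I, 211 ± 32.7 in zone II, then 242 ± 33.2 in zone III and passed in none. Trpm5, a calcium-activated channel known from taste cells, had 134, 147, 153 and 133 in zone I, 53.2, 52.02, 59.1 and 53.1 in zone II, then 32.03, 23.7, 33.6 and 35.9 in zone III. The zones did not overlap. It was 2.61-fold lower in zone II (adjusted p = 7.74e-06) and 4.58-fold lower in zone III (adjusted p = 8.63e-08) than in zone I, with both other probe sets of Trpm5 lower in both. Its lower level in zone III than in zone II (-0.81 ± 0.13) did not pass after ribosomal centring (-0.30, adjusted p = 0.077) or with the median of its probe sets (-0.56, adjusted p = 0.35).

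Trpm4, the closest relative of Trpm5, averaged 106 ± 15.8 in zone I, 101 ± 9.80 in zone II, then 144 ± 6.03 in zone III and was higher in zone III than in both other zones (adjusted p = 0.00382 against zone II, adjusted p = 0.0112 against zone I), so this pair moved in opposite directions between zones III and I. Its call against zone II was lost after quantile normalization (adjusted p = 0.0761) and median centring (adjusted p = 0.0698). Trpm7, a channel joined to a protein kinase that carries magnesium, averaged 1181 ± 221 in zone I, 1005 ± 244 in zone II, then 1183 ± 148 in zone III without a call. Another probe set of Trpm7 was lower in zone II than in zone I (-0.54, adjusted p = 0.0347, limma). The rest over the floor showed -0.84 and -0.50 there without a call. Trpc4ap, which encodes a protein associated with TRPC4 and no channel, averaged 417 ± 32.1, 491 ± 49.3 and 391 ± 29.6 in zones I, II and III. Its call of zone III under zone II (-0.33 ± 0.11, adjusted p = 0.0259) was lost without array A of zone II or C or D of zone III (adjusted p 0.0673 to 0.076), turned to 0.18 after ribosomal centring and was -0.01 (adjusted p = 0.96) as a median with a second probe set under the floor. In all 7 other cation members passed in no comparison (P2rx4, P2rx7, Trpc1, Trpc2, Trpm2, Trpm6 and Trpm7), with log2 differences between -0.78 and 0.62. P2rx7 gained a call between zones III and I with the median of its probe sets, the others being under the floor.

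**Figure D3:**
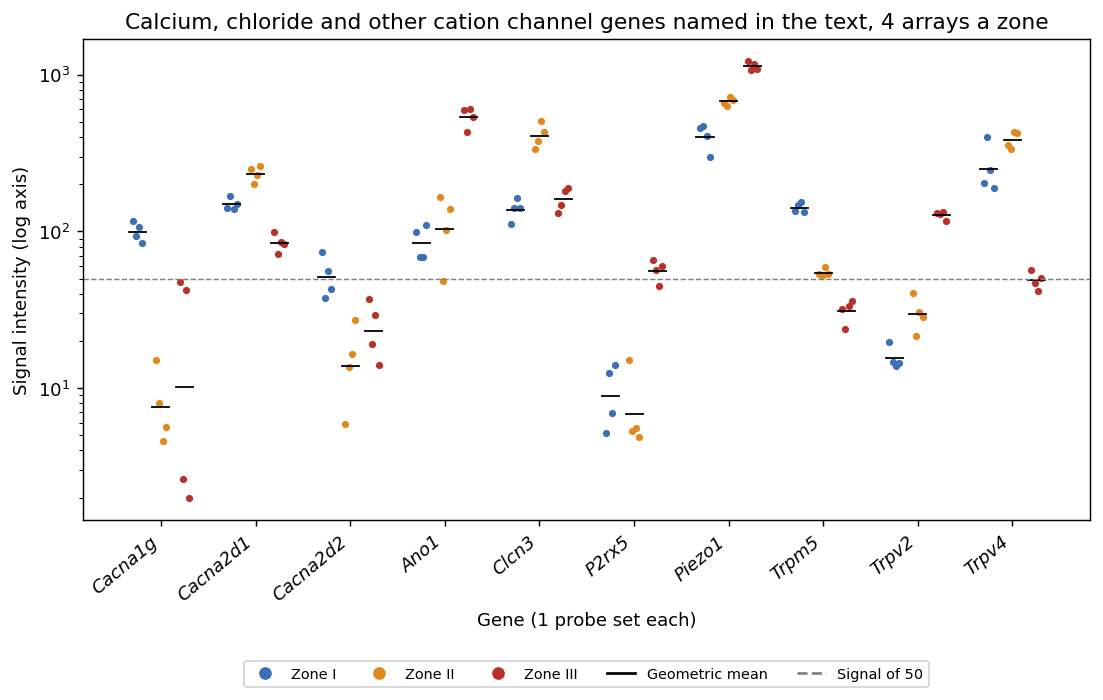
Signal intensity (log axis) of the 10 calcium, chloride and other cation channel genes named with all their arrays; each point is 1 array, with zones I, II and III from left to right for each gene, black bars geometric means of 4 arrays and the dashed line the floor of 50. Ano1, P2rx5, Piezo1 and Trpv2 have their highest arrays in zone III, Clcn3 and Cacna2d1 in zone II and Trpm5 and Cacna1g in zone I, and Trpv4 is low in zone III.

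Read by shape over the 3 zones, the members split into small sets. These shapes, and the zones of the highest mean, were not counted over all probe sets, so they describe the members only. Besides the 2 that were higher at both steps, 6 were higher in zone II than in zone I and then lower in zone III (Clcn3, Kcnma1, Kcnk5, Cacna2d1, Trpv4 and Kcnq5), and 5 were lower in zone II and then higher in zone III (Kcne3, Kcnj8, Kcnk2, Kcnmb4 and Ano6). Another 3 were lower at both steps (Kcna6, Kcne4 and Trpm5), 7 were lower in zone II with no call after it, 5 were called higher and 5 lower only in zone III against zone II, and 26 were called at neither step. The highest zone mean was in zone I for 22 members, in zone II for 15 and in zone III for 22. Both steps share the zone II arrays, so an opposite pair of calls is not a pair of independent results.

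**Figure D4:**
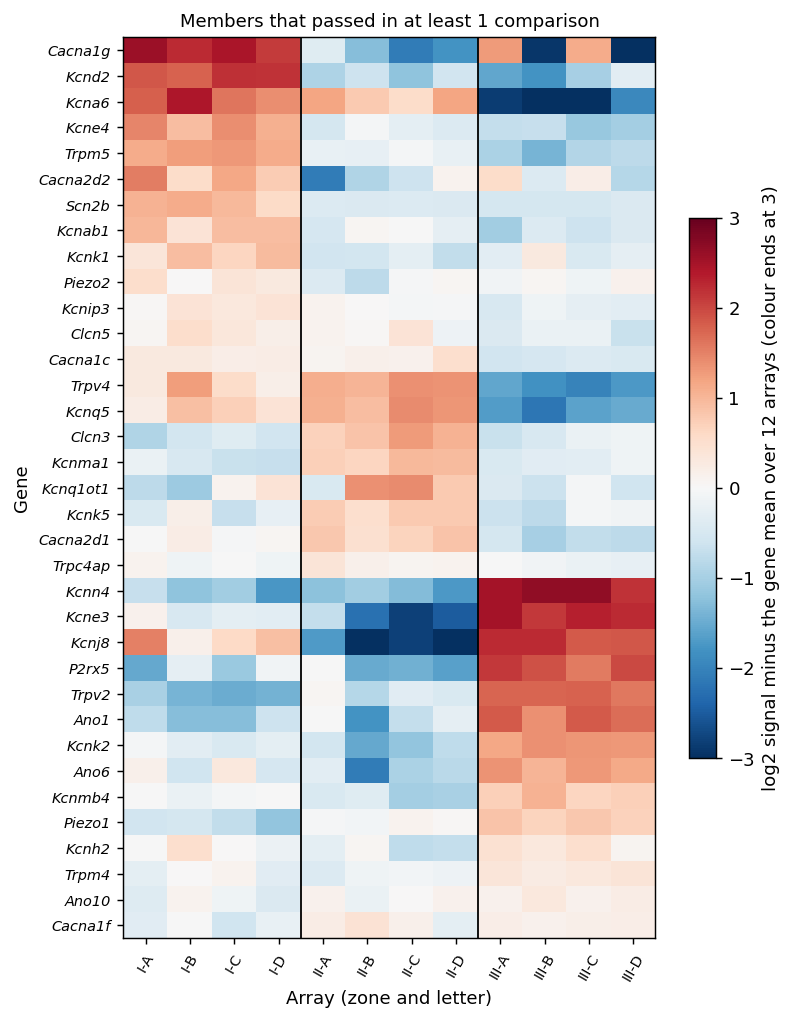
log2 signal of the 35 members that passed in at least 1 comparison, each minus its own mean over the 12 arrays; rows are genes grouped by the zone of their highest mean, columns are arrays A to D of zones I, II and III, red is above and blue below the mean, and the colour ends at 3. Cacna1g splits within zone III, with arrays A and C above the gene mean and B and D far below.

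Genes that work beside the channels were looked at as lists, 1 probe set a gene, chosen with earlier results known, so their counts describe these genes and nothing more. The counts stand against 15.1% of all probe sets higher and 22.2% lower in zone II than in zone I, 28.5% and 20.9% in zone III than in zone II, and 21.0% and 19.0% in zone III than in zone I. Of 20 genes of calcium release from stores and store-operated entry, 13 were measured, 4 higher and 3 lower in zone II than in zone I, 5 higher and 3 lower in zone III than in zone II, and 7 higher and 3 lower in zone III than in zone I. The endolysosomal TRP channels Mcoln2 and Mcoln3 were highest in zone II, while Mcoln1 of the same family was lowest there. Mcoln1 averaged 180 ± 9.31 in zone I, 124 ± 29.9 in zone II, then 265 ± 26.2 in zone III. Mcoln3 averaged 29.9 ± 8.59 in zone I, 295 ± 19.6 in zone II, then 68.3 ± 3.94 in zone III, and Mcoln2 averaged 126 ± 25.4 in zone I, 287 ± 13.7 in zone II, then 28.2 ± 1.93 in zone III. Of 17 pump and exchanger genes 10 were measured, 4 higher and 1 lower in zone II than in zone I, 2 higher and 2 lower in zone III than in zone II, and 4 higher and 0 lower in zone III than in zone I. Atp1b1, a sodium pump subunit, followed the shape of Kcnj8 with 259 ± 40.3 in zone I, 72.5 ± 14.6 in zone II, then 390 ± 42.2 in zone III. Of 18 genes of calcium-calcineurin signalling 13 were measured, 0 higher and 7 lower in zone II than in zone I (15.1% and 22.2% of all), 7 higher and 2 lower in zone III than in zone II (28.5% and 20.9% of all), and 3 higher and 4 lower in zone III than in zone I. Rcan2, an inhibitor of calcineurin, averaged 41.1 ± 7.45 in zone I, 40.7 ± 11.6 in zone II, then 450 ± 77.4 in zone III. Nfatc1, the calcineurin-dependent transcription factor of osteoclasts, averaged 268 ± 18.8 in zone I, 209 ± 31.1 in zone II, then 589 ± 50.9 in zone III.

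Among members nearest the floor, Kcnmb2 reached 51.6, P2rx7 51.7, Cacnb2 52.2, Kcnq1 52.3 and Cacna2d2 52.7 in their highest zone. Just outside it were Kcnh7 at 49.97, Kcnd3 at 48.5, Kcnj13 at 47.8, Kcnn1 at 46.6 and Kcnk16 at 45.6. Under the floor were 59 potassium, 13 calcium, 10 sodium, 6 chloride and 13 other cation channel genes, 101 in all. Of the 59 members 30 reached the floor in all 3 zones, 14 in 2 and 15 in 1.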

How the data were processed

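RNA of 3 tibial zones of mouse embryos at embryonic day 15.5 was measured on 4 arrays a zone. The values are the signal intensities the authors deposited, 1 linear value per probe set and array, with the mean after trimming 2% at each end equal to 150.0 on every array. GCRMA (GeneSpring GX) and RMA (RMAExpress) are named in the study's methods, and RMA in the submitters' notes, but neither source says what made this table. The highest signal differed between arrays, from 4957.5 to 8018.6. The table as deposited was therefore not quantile normalized, a step the methods name for RMA. The algorithm behind it was not settled. The time of the fluidics step was read from the deposited array records as another value and sorted the arrays into 3 runs. All 12 columns were matched to zones by the sample titles, with 0 left over, and gene names came from the platform annotation of probe sets with 1 symbol.

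The log2 of each signal was used without an offset. Of 45101 probe sets, 64 controls were left out, and 22255 reached a mean of 50 in 1 zone or more. The zones were fitted on all 12 arrays with limma 3.58.1 under R 4.3.3 (lmFit, eBayes, 1 shared spread), with Benjamini-Hochberg adjustment within each comparison. Errors of signals are SD over 4 arrays and errors of log2 differences are SE from limma; the number of arrays limits the precision. The steps were tested on simulated data.

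The members and all gene lists were chosen with earlier results of these data known. Named with all arrays were up to 6 members per comparison and direction with the largest log2 difference among members called and changed 1.5-fold or more. Named with zone means were members with a zone mean of at least 300, those of an ion group of 5 or fewer and those nearest the floor. Other members and the companion genes were named after their values were seen. Protein sequences were not used here. The alternatives were no filter, a floor of 100, quantile normalization, centring each array on its median or on that of 86 ribosomal protein probe sets, 16 added to the signal, the replicate letter or the fluidics run as a block, a variance trend with robust estimation, only the 8 arrays compared, a median over each gene's probe sets, a 1.5-fold minimum and each array left out in turn.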

Additional observations from a re-analysis of the deposited data

Results flagged for a closer look

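Of 63 sets of 4 arrays looked at, 4 held 1 array far from the other 3 by Dixon's test, and chance alone sets apart about 1 in 20 such groups. In zone II, Kcnk5 was 151 on array B and 179 to 183 on the other arrays. In zone I, Trpv2 was 19.8 on array A and 13.8 to 14.6 on the others. In zone III, Trpv2 was 117 on array D and 130 to 132 on the others. In zone II, P2rx5 was 15.0 on array A and 4.90 to 5.56 on the others. The calls of Kcnk5, Trpv2 and P2rx5 given in the report passed with each array left out in turn.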

How the results depend on the processing

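Of 1165 alternative values of the 51 differences that passed among the members named with all arrays, 1120 kept their direction and their call, 43 kept the direction only and 2 turned. Both turned where the median of a gene's several probe sets was taken, to -0.47 for Cacna2d1 and 0.19 for Cacna2d2 in zone II over zone I. After ribosomal centring, 5 members were higher in zone II than in zone I (8 as deposited), 24 higher in zone III than in zone II (12 as deposited) and 7 lower there (14 as deposited). That centring moved the median of all probe sets to -0.42, 0.60 and 0.17 in the 3 comparisons, so these counts are relative to it, and median centring moved it to 0.11, -0.15 and -0.05. Taking a median over each gene's probe sets gave 5 members higher in zone II than in zone I and 7 lower in zone III than in zone II, and the cause was not tested. Leaving out single arrays gave 6 to 9 members higher and 13 to 15 lower in zone II than in zone I, 12 to 14 higher and 11 to 16 lower in zone III than in zone II, and 11 to 14 higher and 14 to 17 lower in zone III than in zone I.

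With the replicate block, the letter A to D, 8 members were higher and 16 lower in zone II than in zone I, 12 higher and 13 lower in zone III than in zone II, and 13 higher and 14 lower in zone III than in zone I. It took the call of Trpv4 in zone II over zone I (adjusted p = 0.0552) and those of Kcnip3 and Ano10. The deviations of arrays with the same letter correlated between -0.128 and 0.257, with letter B the only one below 0, and 7 of 12 arrays, not all, had their best partner under their own letter. The sources do not tie letters to litters, so whether same-letter arrays share a litter was not settled, and the letters were not used as pairs. Low signals limit the folds of Kcnn4, P2rx5, Kcnj8, Kcna6, Cacna1g, Cacna2d2, Kcnd2, Kcne3, Kcnq5 and Trpv2, which moved by over 1.5 times with 16 added, and the table holds no detection calls.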

Other observations

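Channel genes outside the symbol rule also differed between zones. Cnga1, a cyclic nucleotide-gated channel subunit known from rod photoreceptors, averaged 16.5 ± 10.6 in zone I, 293 ± 93.9 in zone II, then 6.73 ± 1.45 in zone III (SD, n = 4). Its log2 difference was 4.29 ± 0.37 for zone II over zone I (adjusted p = 3.14e-06, limma) and -5.42 ± 0.37 for zone III against zone II (adjusted p = 2.09e-07, limma). Of the 15 cation channel genes listed with it, 4 were measured. Tmem63a, an osmosensitive channel, averaged 380.1 ± 23.5 in zone I, 194 ± 60.4 in zone II, then 123 ± 8.06 in zone III, and Nalcn, a sodium leak channel, averaged 69.8 ± 12.5 in zone I, 22.5 ± 7.21 in zone II, then 38.6 ± 6.20 in zone III. Tmem63b, of the same family as Tmem63a, went the other way. It averaged 40.4 ± 19.9 in zone I, 95.7 ± 16.5 in zone II, then 87.2 ± 9.69 in zone III.

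Of 14 other chloride channel genes 8 were measured, 1 higher and 1 lower in zone II than in zone I (15.1% and 22.2% of all probe sets), 4 higher and 1 lower in zone III than in zone II (28.5% and 20.9% of all), and 4 higher and 0 lower in zone III than in zone I (21.0% and 19.0% of all). Cftr, the chloride channel mutated in cystic fibrosis, averaged 9.36 ± 1.08 in zone I, 61.9 ± 15.1 in zone II, then 29.6 ± 5.21 in zone III. Lrrc8a, the core subunit of volume-regulated anion channels, averaged 251 ± 58.2 in zone I, 182 ± 33.8 in zone II, then 408 ± 48.0 in zone III, and was higher in zone III than in zone II (adjusted p = 0.000151, limma).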
